A study of Mus musculus with 2 samples.

Results

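The Mirg end of the imprinted cluster on mouse chromosome 12 was described through 10 microRNA genes, Mir382, Mir134, Mir668, Mir485, Mir154, Mir377, Mir541, Mir409, Mir369 and Mir410. They were picked by name and position out of 2202 counted microRNA genes, but with earlier results of these data known. Position alone does not define the set. Mir453, Mir496a and Mir412 lie among them on the same strand and were left out, and each averaged below the median level of the 10. Small RNA below 30 nt had been sequenced from left cerebral cortex tissue of female B6CASTF1/J mice (an F1 of C57BL/6J and the wild-derived CAST/EiJ) at 25 days of age, as 1 group with 2 libraries and no treated or mutant animals. The labels number the animals as separate, although both libraries point to a single donor record, so the spread between them may be technical in part. Levels are in CPM, a gene's own-strand count scaled to the total of own-strand microRNA gene counts in its library, and are given for each library or as mean ± SD over 2 libraries. A level joins both arms of a hairpin.

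The cluster between Dlk1 and Dio3 is imprinted: its long noncoding RNAs Meg3, Rian and Mirg, and the microRNAs cut from them, come from the maternal chromosome. A microRNA hairpin is trimmed to a short duplex, and either arm (5p or 3p) can enter the silencing complex, where the seed (bases 2 to 8) pairs with target messages. In neurons miR-134 is known from dendrites, where it holds back translation of the actin regulator Limk1 and limits spine size. miR-485 is likewise known as a dendritic and synaptic regulator, acting on the vesicle protein Sv2a.

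The 10 genes lie on the plus strand of chromosome 12 (mm10) within 10025 nt, all inside the span of Mirg (109729764 to 109749460), a host transcript with 12 annotated isoforms. Mir382 (109733771 to 109733846), Mir134 (109734139 to 109734209), Mir668 (109734732 to 109734797) and Mir485 (109734902 to 109734974) form a first block of 1204 nt. Mir154 (109738433 to 109738498) and Mir377 (109740510 to 109740577) stand apart in the middle. Mir541 (109742409 to 109742498), Mir409 (109743158 to 109743236), Mir369 (109743418 to 109743496) and Mir410 (109743715 to 109743795) form a last block of 1387 nt. Of the 10 hairpins, 7 overlap an exon of at least 1 Mirg isoform. The other 3, Mir154, Mir541 and Mir409, lie in introns only. Mir134 and Mir485 lie wholly within exons of 3 isoforms, Mir410 of 5 and Mir377 of 1, while Mir377 is intronic in 6. The hairpins of Mir382, Mir668 and Mir369 are covered by exons only in part. In the isoform with most exons, exons reach only the first base of Mir668 and of Mir369 and the end of Mir382.

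All 10 genes were matched in RefSeq (GRCm38.p6), and 19 mature arms were compared, both arms of each gene except Mir485, of which miR-485-5p was not analysed here. Those on which the description turns are printed 5′ to 3′ with the seed in capitals. The first set belongs to the 2 most abundant genes and to Mir134.
miR-382-5p: gAAGUUGUucgugguggauucg
miR-382-3p: uCAUUCACggacaacacuuuuu
miR-541-5p: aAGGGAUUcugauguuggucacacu
miR-541-3p: uGGCGAACacagaauccauacu
miR-134-5p: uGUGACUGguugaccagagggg
miR-134-3p: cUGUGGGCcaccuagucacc
The second set holds the 3p arms with the most similar seeds among these 19.
miR-154-3p: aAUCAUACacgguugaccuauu
miR-369-3p: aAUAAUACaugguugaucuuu
miR-485-3p: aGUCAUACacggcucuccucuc

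The 19 arms compared all have different seeds. Among 162 pairs of these arms from different genes, the seeds differed at only 1 of 7 bases in 2 pairs, miR-154-3p with miR-369-3p and miR-154-3p with miR-485-3p. Over the whole arm, miR-154-3p and miR-369-3p had 77.3% identical bases in a global alignment. The next value, 72.7%, was found for 3 pairs, miR-154-3p with miR-485-3p, miR-154-5p with miR-410-5p and miR-382-5p with miR-377-5p. miR-154-3p and miR-485-3p share the run UCAUACACGG from base 3 on, which at 10 bases was the longest run in common in these pairs. Mir154, Mir369 and Mir485 averaged between 1348 and 2992 CPM, a range that also holds Mir668 (1536 CPM) and Mir409 (2500 CPM).

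Among the mature microRNAs in the RefSeq table, 5 of the 19 arms compared share a seed with one outside the 10 genes. Of those partners, the detected ones were Mir672, on chromosome X, and Mir494, farther upstream in the same cluster. They are printed beside the arms they match.
miR-377-5p: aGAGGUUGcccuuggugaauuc
miR-672-5p: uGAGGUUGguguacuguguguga
miR-410-5p: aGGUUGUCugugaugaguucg
miR-494-5p: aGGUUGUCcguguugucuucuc
Mir672 averaged 534 ± 108 CPM (1842 and 1469 counts in replicates 1 and 2) against 260 ± 246 CPM for Mir377 (261 and 1394 counts). Mir672 was the higher of the pair in both libraries. Mir494 averaged 33.2 ± 5.54 CPM against 87.6 ± 11.8 CPM for Mir410. The other partners (Mir3620, Mir467h, and the Mir344d and Mir344e genes) had between 0 and 7 counts per library. The Mir344d genes have the same 3p arm, and reads placed at several loci are outside the gene counts. The level of that arm can therefore not be read from these counts.

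A set of 4 hairpins shares a longer stretch around the end of the 5p arm, found by listing every run of 7 to 10 bases held by at least 4 of the 10. The stretch UUCGCUUUA, in capitals, starts within the last 3 or 4 bases of the 5p arm and runs into the loop.
Mir382: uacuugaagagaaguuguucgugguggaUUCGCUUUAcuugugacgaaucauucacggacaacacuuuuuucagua
Mir154: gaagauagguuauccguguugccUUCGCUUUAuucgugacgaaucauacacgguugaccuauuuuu
Mir377: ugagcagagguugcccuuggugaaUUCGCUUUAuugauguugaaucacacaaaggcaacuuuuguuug
Mir410: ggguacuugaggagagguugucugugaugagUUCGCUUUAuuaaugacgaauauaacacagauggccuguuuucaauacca
Only the transcribed strand of each hairpin was searched. Of 2202 hairpins, 5 (0.227%) hold this stretch, and the fifth is Mir543 of the same cluster. Its shorter form UUCGCUU, which overlaps it, is also in Mir369 and is held by 13 hairpins (0.590%), 10 of them among the 67 counted microRNA genes between Meg3 and Dio3. The carriers of the long form spanned the whole range of levels, from Mir382 at 11267 ± 904 CPM to Mir410 at 87.6 ± 11.8 CPM. The match is a description of the letters and was looked for with the sequences in view.

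Hairpins of the 10 genes were 66 to 90 nt long. Their GC content ran from 39.5% in Mir382 to 60.6% in Mir134, with a median of 42.6%, beside 50.8% over all counted hairpins and 52.2% over detected ones. Their predicted folding energies lay between -37.6 kcal/mol (Mir541) and -25.2 kcal/mol (Mir154). No stretch of 18 nt or longer was shared by any of the 10 with a hairpin elsewhere in the annotation, whereas 51.5% of all counted hairpins share one. Reads placed at several loci (40.3% and 39.0% of all reads in replicates 1 and 2) are outside the gene counts. Ranks, shares and medians given below thus set these 10 against genes of which many can lose such reads. The size of this effect was not tested. Copies outside annotated hairpins were not looked for.

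Each of the 10 genes reached 10 counts or more in each library, the limit used here for calling a gene detected, which 17.9% of the 2202 counted genes met. The libraries held 3017058 and 3209361 microRNA gene counts, out of 8491339 and 9289252 reads. A count of 0 would allow up to 0.994 and 0.935 CPM, as 3 counts, and every member stood well above this limit. As a check of the tissue, 9 neuronal microRNA genes held 21.4% and 20.1% of counts, but 3 of them, the Mir124a genes, had only 0 to 9 counts per library. Most of this share came from Mir139 alone, at 155820 and 141898 CPM. The share compares with 0.00467% and 0.00511% for the liver microRNA Mir122. Reads placed at several loci are outside these counts, and whether this lowered the Mir124a counts was not tested. Intervals and limits cover counting error only, since reads without molecular identifiers are not independent molecules.

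**Figure D1:**
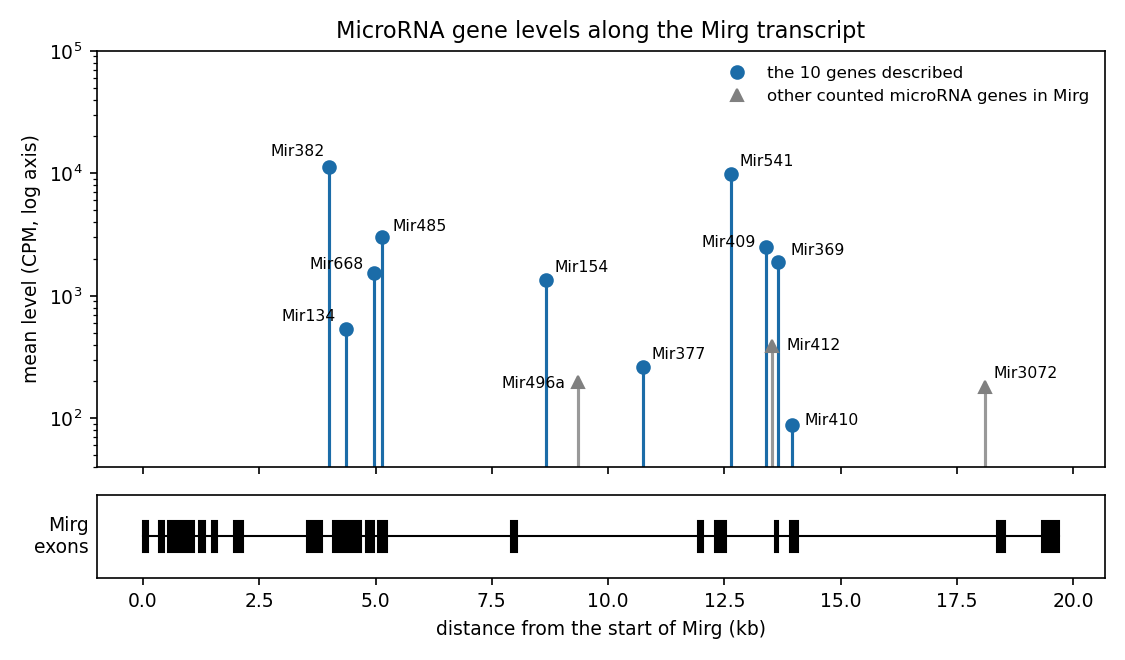
Mean level in CPM (log axis) of the microRNA genes within Mirg against their distance from its start in kb, with the exons of the isoform that has most exons below. Blue circles are the 10 genes described and grey triangles the other counted genes with reads. Mir382 and Mir541 stand highest, 1 in each block, and Mir410 lies lowest.

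Levels along this one host transcript differed widely from gene to gene. Mir382, the first hairpin of the series, was the most abundant. It reached 11906 CPM in replicate 1 (35922 counts) and 10628 CPM in replicate 2 (34109 counts). Mir541 at the head of the last block reached 10952 and 8729 CPM. Both libraries therefore had Mir382 in first place and Mir541 in second, at overall ranks 19 and 22 among the 2202 genes by mean CPM. Together they made up 70.8% of the counts of the 10 genes in replicate 1 and 60.0% in replicate 2.

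The dendritic pair was far lower than the first hairpin of its block. Mir134 stood at 592 CPM in replicate 1 (1787 counts, exact 95% interval 565 to 620 CPM) and 474 CPM in replicate 2 (1521 counts). Mir485 stood at 2435 CPM (7347 counts) and 3548 CPM (11388 counts). Mir485 was thus above Mir134 in both libraries, by 4.11-fold and 7.49-fold. Mir382, only 292 nt upstream of Mir134, was above it by 20.1-fold and 22.4-fold. Mir668, which lies between the dendritic pair, gave 1673 and 1399 CPM.

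The middle genes were Mir154, the namesake of a sequence-related group within the cluster, and Mir377. Mir154 gave 1055 and 1641 CPM. Mir377 gave 86.5 CPM in replicate 1 (261 counts) and 434 CPM in replicate 2 (1394 counts). Its mean of 260 ± 246 CPM has an SD almost as large as itself, so the mean stands for neither library.

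In the last block Mir409, whose 3p arm is known in corticospinal neurons as a repressor of Lmo4, gave 1998 and 3002 CPM. Mir369, known for a 3p arm that can act on messages with AU-rich elements, gave 1513 and 2287 CPM. Mir410 ended the series at 79.2 CPM (239 counts, exact 95% interval 69.5 to 89.9 CPM) and 96.0 CPM (308 counts). Mir369 was above its neighbour Mir410 by 19.1-fold and 23.8-fold, although the hairpins are 218 nt apart. From the highest to the lowest gene the span was 150-fold in replicate 1 and 111-fold in replicate 2.

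**Figure D2:**
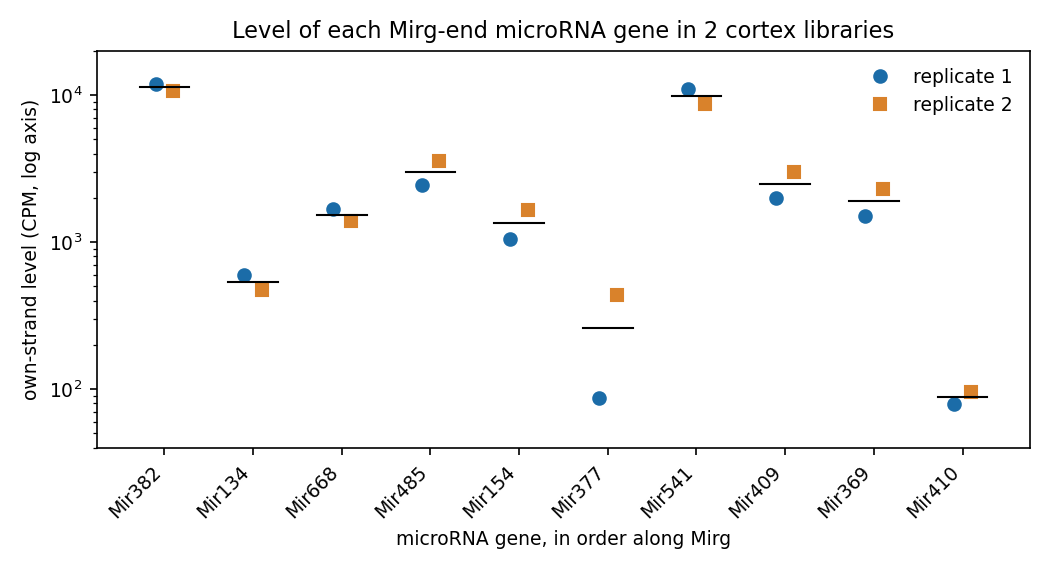
Level of each gene in CPM (log axis), in order along Mirg, with circles for replicate 1, squares for replicate 2 and a bar at the mean. The libraries lie close together for most genes, while Mir377 is at 86.5 CPM in replicate 1 and 434 CPM in replicate 2.

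Ordered by mean level, the genes ran Mir382, Mir541, Mir485, Mir409, Mir369, Mir668, Mir154, Mir134, Mir377 and Mir410. In 6 of the 9 neighbouring pairs the ranges over the 2 libraries overlapped, so by this measure those neighbours did not differ beyond their spread. This holds for Mir382 and Mir541, for the chain from Mir485 through Mir409, Mir369 and Mir668 to Mir154, and for Mir377 and Mir410. Within each library, 4 of these 6 pairs nevertheless had the same gene on top both times, and only Mir369 with Mir668 and Mir668 with Mir154 changed places. The 3 steps without overlap lay between Mir541 and Mir485 (3.29-fold between means), between Mir154 and Mir134 (2.53-fold) and between Mir134 and Mir377 (2.05-fold). The last of these rests on replicate 1, with 6.85-fold there and 1.09-fold in replicate 2. The order was the same with CPM divided by hairpin length. Genes at or above 1000 CPM numbered 7 of these 10 and 99 of 2202.

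The median of the 10 genes was 1718 CPM, where the median detected gene had 101 CPM. The detected gene nearest in level over both libraries, by the summed absolute difference of log2(CPM + 1), was looked up for each of the genes. It was Mir652 for Mir382 (sum 0.30), Mir151 for Mir541 (0.23), Mir100 for Mir485 (0.14), Mir219a-2 for Mir409 (0.36) and Mir874 for Mir369 (0.15). It was Mir708 for Mir668 (0.19), Mir181c for Mir154 (0.37), Mir672 for Mir134 (0.094), Mir339 for Mir377 (0.26) and Mir135b for Mir410 (0.28). None of these lies on chromosome 12. With 2 libraries, nearness says only that the levels are alike.

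**Figure D3:**
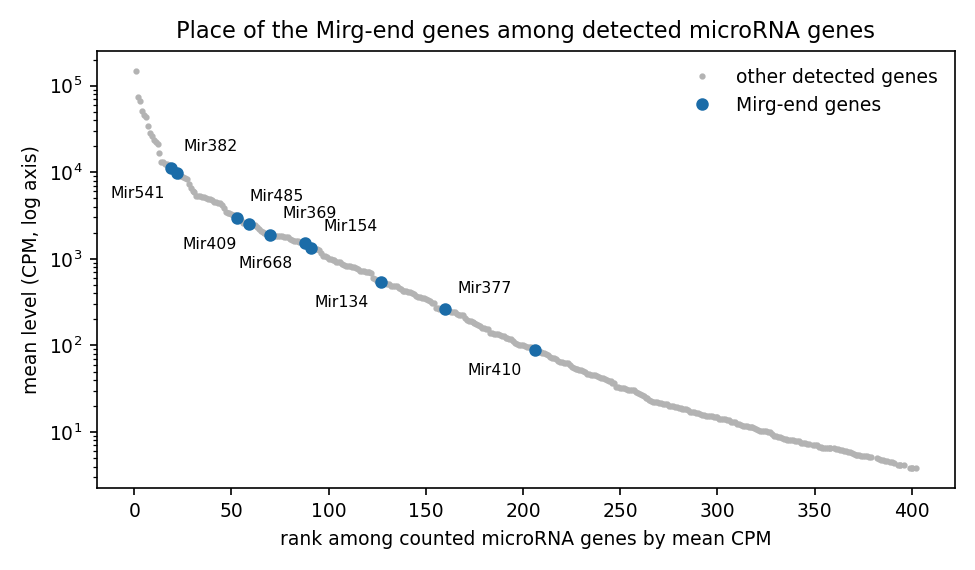
Mean level in CPM (log axis) of the detected microRNA genes by rank, with the 10 genes in blue. They spread from rank 19 (Mir382) to rank 206 (Mir410) and do not sit together.

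The 2 libraries were then compared gene by gene with a two-sided exact binomial test on counts, after TMM scaling of library sizes and with Benjamini-Hochberg adjustment over 496 genes. The test sets one library against the other and no condition against another. Of the 10 genes, 9 passed (adjusted p under 0.05), while 56.5% of all tested genes did. Among genes with at least 100 counts in total, which all 10 have, the share was 80.4%, so 9 of 10 is near the background. Of the 10, 4 were higher in replicate 1 (30.6% of tested genes were) and 5 in replicate 2 (25.8%). Among genes with at least 100 counts in total, these shares were 44.7% and 35.7%. Only Mir377 both passed and was more than 2-fold apart, which held for 16.9% of tested genes.

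The genes higher in replicate 1 were Mir382, Mir134, Mir668 and Mir541. Their log2 ratios, replicate 2 over replicate 1, were -0.39 for Mir382 (95% counting interval -0.41 to -0.37), -0.55 for Mir134 (-0.65 to -0.45; adjusted p = 3.1e-27 in the exact binomial test), -0.49 for Mir668 and -0.56 for Mir541. Those higher in replicate 2 were Mir485 at 0.31 (0.27 to 0.36), Mir409 at 0.36, Mir369 at 0.37, Mir154 at 0.41 and Mir377 at 2.10 (1.91 to 2.30). The ratio of Mir377 is a 4.29-fold difference (adjusted p = 3.5e-136 in the exact binomial test). Mir410 did not pass, at 0.05 (-0.20 to 0.30; adjusted p = 0.81 in the exact binomial test). The dendritic pair therefore went in opposite directions between the libraries, with Mir134 higher in replicate 1 and Mir485 higher in replicate 2.

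Along Mirg, 5 of the 8 adjacent pairs among the 9 genes that passed had the same direction, and this arrangement was not tested. The first block held 3 genes higher in replicate 1 and Mir485, 104 nt after Mir668, higher in replicate 2. The last block held Mir541 higher in replicate 1, with Mir409 and Mir369 higher in replicate 2. The median log2 ratio of the 10 genes was 0.18, beside 0.0058 over all tested genes and -0.054 over those with at least 100 counts in total. The median absolute ratio of the 10 was 0.40, beside 0.53 over all tested genes and 0.45 over detected ones. TMM scaling moves every ratio by -0.23 relative to library totals. With totals, 36.3% of tested genes passed toward replicate 2 and 20.6% toward replicate 1, while all 10 directions stayed as given, and Mir410 passed as well (log2 ratio 0.28, adjusted p = 0.046 in the exact binomial test). In whole tissue, fewer cells of a type and less RNA per cell cannot be told apart. Cell type lists also moved between the libraries. Shares of counts in replicates 1 and 2 were 0.366% and 0.562% for 2 oligodendrocyte genes, 0.213% and 0.168% for 4 microglial and immune genes and 1.20% and 1.26% for 3 endothelial and mural genes. They were 0.00315% and 0.00514% for 2 red blood cell genes, beside the neuronal 21.4% and 20.1%. The neuronal sum joins genes that moved in opposite directions. Mir139 had 155820 and 141898 CPM in replicates 1 and 2, and Mir132, Mir138-1 and Mir138-2 were also lower in replicate 2. Mir128-1 went the other way, with 11855 and 14517 CPM, as did Mir128-2, with 2854 and 3518 CPM. The endothelial and mural sum likewise joins genes that moved in opposite directions. Mir126a had 5714 and 8835 CPM in replicates 1 and 2, Mir143 had 5506 and 3493 CPM, and Mir145a had 792 and 237 CPM. The part of these shifts in the differences was not tested.

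**Figure D4:**
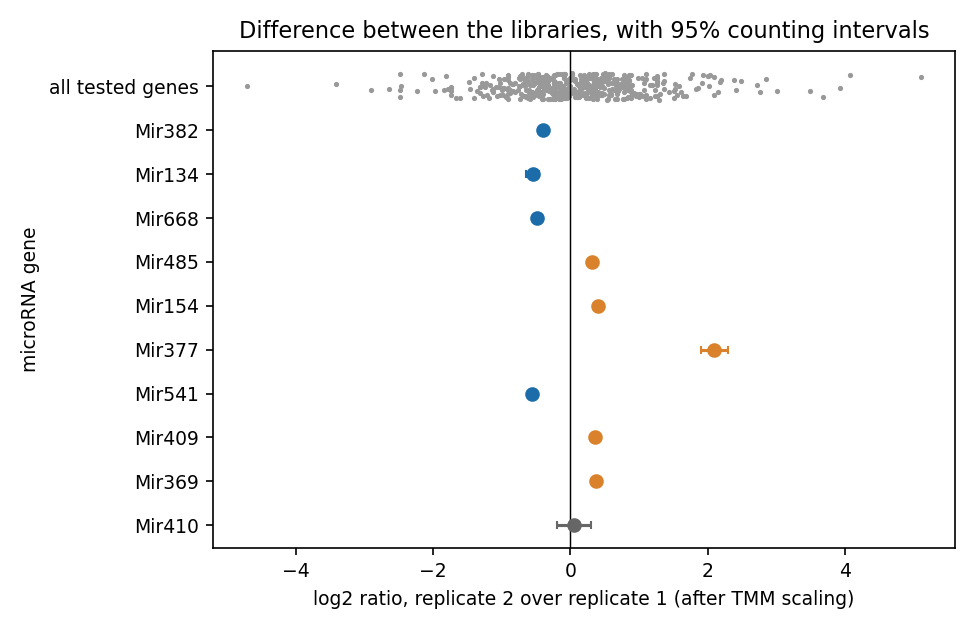
Log2 ratio of replicate 2 over replicate 1 after TMM scaling for each gene, with 95% counting intervals, below the ratios of all 496 tested genes in grey. Blue marks genes higher in replicate 1, orange those higher in replicate 2 and grey Mir410, whose interval (-0.20 to 0.30) includes 0; Mir377 stands apart at 2.10.

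As a sum, the 10 genes took nearly equal shares of the libraries. They held 97424 counts or 3.23% of microRNA gene counts in replicate 1 (exact 95% interval 3.21 to 3.25) and 103470 counts or 3.22% in replicate 2 (3.20 to 3.24). The intervals overlap, and the mean was 3.227% ± 0.00361 (SD, n = 2), from genes that are 0.454% of those counted. By position, the first block held 1.66% and 1.60% of counts, the last block 1.45% and 1.41%, and Mir154 with Mir377 held 0.114% and 0.208%. The near-equal sum belongs to scaling by library totals, since after TMM scaling its log2 ratio is -0.23, the same as the shift that TMM gives to every gene.

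**Figure D5:**
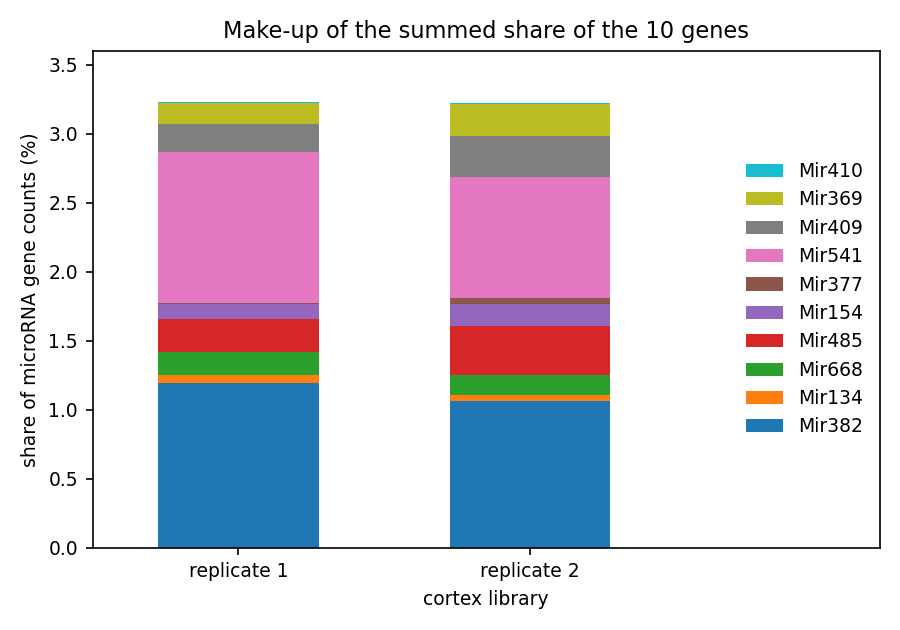
Share of microRNA gene counts (%) held by the 10 genes in each library, stacked by gene in order along Mirg from the bottom. Both bars end near 3.2%, with larger parts for Mir382 and Mir541 in replicate 1 and for Mir485, Mir154, Mir409 and Mir369 in replicate 2.

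Within the larger cluster, the 10 genes supplied 18.3% of the counts of the 67 microRNA genes between Meg3 and Dio3 in replicate 1 and 19.3% in replicate 2. The 10 genes from Meg3 to before Rtl1 held 2.86% ± 0.162 of all microRNA gene counts, with 8 detected and a median of 155 CPM. The 7 genes over Rtl1 held 7.11% ± 0.0606, with 5 detected and a median of 1856 CPM. The 34 genes after Rtl1 and before Mirg held 3.89% ± 0.498, with 24 detected and a median of 113 CPM. The 10 genes described are a picked part of their stretch, whereas the other stretches hold every counted microRNA gene. The 6 remaining genes from Mirg to Dio3 held 0.0784% ± 0.0131, with 4 detected and a median of 96.6 CPM. Differences between these stretches were not tested, because genes of one host transcript are not replicates.

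Inside Mirg, 5 more microRNA genes were counted beside the 10. Mir412, between Mir409 and Mir369, gave 1276 and 1161 counts (392 ± 43.3 CPM), and Mir496a, between Mir154 and Mir377, gave 481 and 764 counts (199 ± 55.6 CPM). Mir3072, near the 3′ end of Mirg, gave 317 and 829 counts (182 ± 108 CPM). In the exact binomial test Mir412 was higher in replicate 1 (log2 ratio -0.45) and Mir496a and Mir3072 were higher in replicate 2 (0.35 and 1.07). Mir453, after Mir485, had 0 counts in both libraries. Gm24321 occupies the minus strand opposite Mir409 and had 0 own-strand counts in both.

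Each of the 10 genes had 0 counts on the opposite strand in both libraries. In the column that ignores strand, 9 of the 10 had the same counts as on their own strand, and Mir409 had 0, where its hairpin overlaps that of Gm24321. With that column, an alternative added after the data were seen, 8 of 9 tested members passed the library comparison. Of all 473 genes tested with it, 54.8% passed, a background that includes genes with far fewer counts than these members.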

How the data were processed

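Small RNA libraries of 2 cortex samples were used. The deposited tables list unnormalized counts of reads for each microRNA gene on mm10 with annotation M21, per the deposited readme files. For the aligner and counter, names were not given in the sources used here. Columns are unnamed, and the roles of the either-strand, own-strand and opposite-strand count columns were read from the values. The 4 classes of reads outside genes were left out of library sizes.

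Names and positions came from GENCODE M21 on GRCm38, hairpins from its transcripts and mature sequences from RefSeq (GRCm38.p6). Members, gene lists and tests were chosen with earlier results of these data known. Named genes were the 10 members, other genes within Mirg, detected genes that share a member's seed and the nearest detected gene in level. Genes with at least 10 counts in total were tested between libraries by an exact binomial test across all genes, with TMM factors from edgeR 4.0.16, and the procedure was tested on simulated data. Alternatives were DESeq2 1.42.0 size factors, library totals, other minimums, thinning to 1000000 counts, the either-strand column, all reads as denominator, CPM added, stretches of 18 and 22 nt, CPM per base and each library alone; the library comparison and median ratio with the either-strand column, the median ratio after thinning or other minimums, and detection in each library alone were added after the data were seen. Python 3.11.15, scipy 1.17.1, Biopython 1.88 and RNAfold 2.7.2 were used. An edgeR quasi-likelihood test could not be fitted with 1 library a side.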

Additional observations from a re-analysis of the deposited data

Results flagged for a closer look

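Gm24321, on the minus strand opposite Mir409, drew attention because the opposite-strand column, which no comparison used, held 6027 counts for it in replicate 1 and 9636 in replicate 2. These equal the own-strand counts of Mir409 in the same libraries.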

How the results depend on the processing

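With all reads as the denominator, the median of the 10 genes was 601 CPM and their summed share 1.13%. In the either-strand column the summed share was 3.188%, with Mir409 at 0. With library totals the median log2 ratio was 0.41, and with thinning to 1000000 counts 0.36. Totals drop the TMM shift from every ratio, and for thinning the cause was not tested. With each library alone, the summed share ranged from 3.224% to 3.229%, the median level from 1593 to 1964 CPM, and the detected genes numbered 10 each time. The order kept 8 of 10 places in each library, with Mir668 changing places with Mir154 or Mir369. All 59 repeats of single log2 ratios kept their direction, and 1, that of Mir410 with library totals, newly passed. The library comparison could not be run with a library left out. No paired analysis was possible because there is 1 group. Depth limits Mir410 and the replicate 1 value of Mir377, with 239 and 261 counts.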
